A study of Mus musculus with 4 samples.

Results

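Serpins are protease inhibitors that trap their target enzyme by a change of shape, and some members of the family no longer inhibit and carry hormones instead. Clade A serpins are secreted mainly by the liver, and in the mouse most of their genes lie side by side on chromosome 12. The Serpina3 genes have multiplied in the mouse and correspond to the human gene for alpha-1-antichymotrypsin, an acute-phase protein. 10 genes of this family were examined in the liver of diet-induced obese mice given galanin-like peptide (GALP), a neuropeptide that acts on feeding and energy use: Serpina3c, Serpina3g, Serpina3k, Serpina3m, Serpina3n, Serpina4-ps1, Serpina6, Serpina7, Serpina10 and Serpina12. Their probes were taken by gene name from the scanner files, which gave 13 probes of 41174 and 10 gene names of 26582. The genes were selected on their log2 ratios of GALP over control in the 2 pools, so these values are a description and no test is given for them.

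Male C57BL/6J mice had been on high-fat chow for 14 weeks, weighed at least 40 g and received GALP (porcine, 1 nmol) or saline into the nose, 2 µL once daily for 11 days. They were 8 weeks old when purchased. Before treatment all mice were acclimatized with daily intranasal saline, for 2 weeks by the labels and a shorter time in the methods. High-fat chow continued during the treatment. Liver RNA was pooled from the 4 GALP mice with greater weight loss, from the 4 GALP mice with less weight loss, and from the 8 saline control mice. 2 Agilent two-colour arrays, with the dyes swapped, set each GALP pool against the control, and all 4 arrays shared 1 slide. The 2 arrays of a pool carry the same extracts, so there were 2 GALP pools and 1 control pool. The pools were formed by the weight loss of the mice, and the spread among mice within a pool was not measured. In a pool of whole liver, fewer cells of a type and less RNA per cell cannot be told apart.

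On these arrays a channel had between 40.5% and 46.7% of its spots well above background, no spot was saturated, and the median log2 ratio was 0.00 on every array. Of the 10 hepatocyte markers listed, 8 were on the array by that name and all 8 had signal, with median log2 ratios of 0.12 and 0.03 in the greater and less weight loss pool. Markers of other tissues differed strongly between the pools. The 6 exocrine pancreas markers with signal had median log2 ratios of -3.73 and 0.84, with summed signals of 102000 to 131000 in control, 7950 to 11100 in the greater and 178000 to 184000 in the less weight loss pool. The 5 skeletal muscle markers with signal had median log2 ratios of 0.34 and -2.20, with summed signals of 1360 to 1620 in control, 1680 to 2280 in the greater and 263 to 325 in the less weight loss pool.

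Serpina4-ps1, a transcribed pseudogene of the kallistatin gene, was the member whose ratio differed most between the pools. It had 2 probes, and the brighter one lies on the plus strand of chromosome 12 of the mm9 build, at chr12:105319448-105319507. Probes of different genes shared little. Over 257 pairs of a member probe and a clade A probe of another gene, the longest run of identical bases was 10 and at most 30 of 60 bases matched in any ungapped placement. Transcripts without a probe were not compared, and the Serpina3 genes are close copies of each other, so binding of 1 copy's transcript to the probe of another was not tested.

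The 250 bases before the gene start are shown for Serpina3c, Serpina3n and Serpina3g, the Serpina3 members with an entry in the RefSeq promoter table (GRCm38.p6), which held 5 of the 10 members. Capitals mark matches on either strand to 3 motifs: AGAACA, the half-site of the glucocorticoid receptor, TTCNNNGAA, the core bound by STAT factors, and TATAAA.
Serpina3c, minus strand, chr12:104153873-104154122: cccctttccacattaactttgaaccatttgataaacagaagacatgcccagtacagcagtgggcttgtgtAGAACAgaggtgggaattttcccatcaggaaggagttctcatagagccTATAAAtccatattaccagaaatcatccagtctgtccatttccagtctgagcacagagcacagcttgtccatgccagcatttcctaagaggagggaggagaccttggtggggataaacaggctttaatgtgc
Serpina3n, plus strand, chr12:104406458-104406707: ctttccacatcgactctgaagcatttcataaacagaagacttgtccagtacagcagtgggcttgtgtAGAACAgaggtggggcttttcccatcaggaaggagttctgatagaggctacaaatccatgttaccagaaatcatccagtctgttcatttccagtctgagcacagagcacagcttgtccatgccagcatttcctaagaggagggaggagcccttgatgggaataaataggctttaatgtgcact
Serpina3g, plus strand, chr12:104235897-104236146: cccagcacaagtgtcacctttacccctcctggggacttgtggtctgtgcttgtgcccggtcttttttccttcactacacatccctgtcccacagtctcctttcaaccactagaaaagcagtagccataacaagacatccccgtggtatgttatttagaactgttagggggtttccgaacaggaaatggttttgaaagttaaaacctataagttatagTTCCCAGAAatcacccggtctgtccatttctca
Serpina3c and Serpina3n were identical at 229 of 253 aligned positions (90.5%), whereas the other 9 pairs among the 5 members had 46.5% to 52.1% identity in the same global alignment. Both hold 1 AGAACA match, which 16.1% of all 32851 promoters in the table hold in this window. Serpina3c also holds 1 TATAAA match (12.4% of all promoters), and Serpina3g holds 1 TTCNNNGAA match (7.02%). A match is a sequence and not a bound site.

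With GALP, no member passed the fold and p-value thresholds of the study's methods in both pools. The number of arrays that must meet the p-value is not given in the methods, and the rule was read strictly here. As read, it asked for a fold above 1.5 or below 0.75 in each pool, the same direction on all 4 arrays and a p-value of the scanner software (Feature Extraction) under 0.01 on each. It called 0 of the 13 member probes, beside 24 of 41037 probes higher (0.0585%) and 54 lower (0.132%). Of the 11 member probes with signal, meaning that every array had the probe well above background in 1 or both channels, 4 lay above 0 on all 4 arrays and 3 below 0. Over all 15734 probes with signal the shares were 11.4% and 15.7%. Since these genes were chosen with this contrast known, nothing is read from the counts. Taking the brightest probe of each of the 9 member genes with signal, the median log2 ratio was 0.02 in the greater and 0.02 in the less weight loss pool, beside -0.01 and -0.01 over 11420 genes with signal. The limma test over all probes, with 2 pool ratios against 0, called 0 higher and 0 lower after Benjamini-Hochberg adjustment (smallest adjusted p = 0.374), and at an unadjusted p under 0.05 it gave 2049 higher and 2710 lower. With normexp background correction and loess it called 42 and 53. With the pool as a random block and no dye term it called 77 and 116, but the estimated correlation was -0.48, so that fit counts the 2 arrays of a pool as more than independent.

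**Figure D1:**
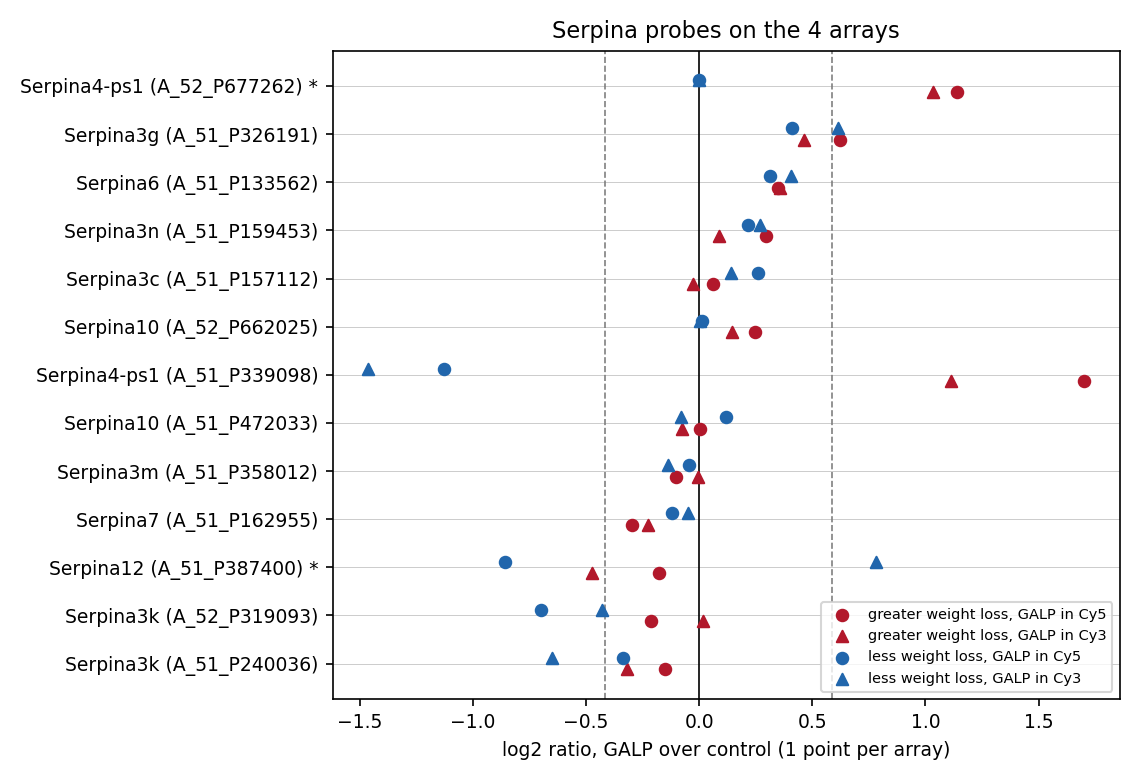
Log2 ratio of GALP over control (x axis) for the 13 probes of the 10 genes, 1 point per array, circles with GALP in Cy5 and triangles with GALP in Cy3, red for greater and blue for less weight loss. Dashed lines mark folds of 1.5 and 0.75, and an asterisk marks a probe without signal. The points of Serpina4-ps1 probe A_51_P339098 lie on opposite sides of 0 in the 2 pools, and those of Serpina3g and Serpina6 lie together above 0.

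Among the Serpina3 genes, Serpina3g had the highest ratio and Serpina3k the lowest. Serpina3g encodes an inhibitor that works inside cells on cathepsins and is best known from blood cells. Its probe (chr12:105480045-105480104, plus strand, base 2015 of the transcript) gave log2 ratios of 0.62 and 0.46 in the greater and 0.41 and 0.61 in the less weight loss pool, each with GALP in Cy5 and then in Cy3. All 4 arrays were above 0 and the pools overlapped. The mean was 0.53 ± 0.02 (SD, n = 2 pools), a fold of 1.44, and the scanner p-value was under 0.01 on 2 of 4 arrays. The control signal was 1850 to 2230 and the GALP signal 2680 to 3190, so the 2 ranges were apart.

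Markers of blood cells were listed beside Serpina3g, and their directions were mixed. Of 13 T, NK and B cell markers, 5 had signal, with a median log2 ratio of 0.63 in the greater and 0.16 in the less weight loss pool. Their summed signal was 862 to 991 in control, 1320 on both arrays with greater and 1060 to 1160 with less weight loss. Of these 5 genes 2 lay above 0 on all 4 arrays, Ptprc, the common leukocyte antigen (0.47 ± 0.12, SD, n = 2 pools), and Nkg7 of cytotoxic cells (0.59 ± 0.31). Ms4a1, a B cell antigen, lay below 0 on all 4 (-0.86 ± 0.19). Gzmb, a granzyme (0.53 ± 0.53), and Cd3d of the T cell receptor complex (0.24 ± 0.56) had arrays on both sides of 0. The 8 macrophage and Kupffer cell markers with signal had medians of 0.17 and 0.25, with 4 of 8 above 0 on all arrays, beside 11.4% of all probes with signal. Their summed signal was 23100 to 25900 in control, 26000 to 31000 with greater and 29300 to 31800 with less weight loss. Marco, a scavenger receptor of macrophages, passed the rule of the methods at 0.87 ± 0.25. Timd4 (-0.16), Vsig4 (-0.07), Clec4f (-0.0013) and Csf1r (0.27) had arrays on both sides of 0. These are values of the brightest probe of each gene. A dimmer Ptprc probe with signal (0.33) had arrays on both sides of 0. A dimmer Csf1r probe with signal (0.40) lay above 0 on all 4. The part of these cells in the Serpina3g ratio was not tested.

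Serpina3k, the kallikrein-binding protein of the liver, had 2 probes on the plus strand. The brighter one (chr12:105583645-105583704, base 1347) gave -0.21 and 0.02 in the greater and -0.70 and -0.43 in the less weight loss pool. The other (chr12:105583910-105583969, base 1612) gave -0.15 and -0.32, then -0.34 and -0.65. Both probes were lower with less weight loss on all 4 array pairs of like dye orientation, by 0.47 and 0.26 on average. The fold of the brighter probe was 0.934 with greater and 0.677 with less weight loss, that of the other 0.85 and 0.71. Means over the pools were -0.33 ± 0.33 and -0.36 ± 0.18 (SD, n = 2 pools), and each probe passed the scanner p-value on 1 of 4 arrays.

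The other 3 Serpina3 genes had smaller ratios. Serpina3n, the main mouse counterpart of alpha-1-antichymotrypsin (chr12:105651918-105651977, plus strand, base 1463), gave 0.29 and 0.09 in the greater and 0.22 and 0.27 in the less weight loss pool. All 4 arrays were above 0 and the mean was 0.22 ± 0.04 (SD, n = 2 pools), a fold of 1.16. Serpina3c (chr12:105385352-105385411, minus strand, base 1395) gave 0.06 and -0.03, then 0.26 and 0.14, so that the less weight loss pool was higher on both of its arrays. Serpina3m (chr12:105632342-105632400, plus strand, base 1533) gave -0.10 and -0.01, then -0.05 and -0.14, with a mean of -0.07 ± 0.03. None of these 3 passed the scanner p-value on any array. All 3 probes were well above background in both channels of every array.

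The hormone carriers had ratios of opposite sign, and neither passed the scanner p-value on any array. Serpina6 is corticosteroid-binding globulin, which carries glucocorticoids in the blood. Its probe (chr12:104884880-104884939, minus strand, base 1511) gave 0.35 and 0.36 in the greater and 0.31 and 0.41 in the less weight loss pool. The mean of 0.36 ± 0.0046 (SD, n = 2 pools), a fold of 1.28, varied least between the pools of all 13 probes, and the pools overlapped. The control signal of 10200 to 12800 lay below the GALP signal of 13100 to 15900. No array had a scanner p-value under 0.01.

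Serpina7 is thyroxine-binding globulin and lies on the X chromosome, apart from the cluster. Its probe spans an intron (minus strand, chrX:135615848-135616502, base 957) and gave -0.30 and -0.23 in the greater and -0.12 and -0.05 in the less weight loss pool. All 4 arrays were below 0, with a mean of -0.17 ± 0.13 (SD, n = 2 pools) and a fold of 0.887. As for Serpina6, no scanner p-value was under 0.01. Over all probes with signal 15.7% lay below 0 on all 4 arrays and 11.4% above. The less weight loss pool lay 0.18 above the other in both dye orientations. The sign of neither carrier changed in any of the 13 alternatives run for its mean. With 1 sign on all 4 arrays, however, subsets of the arrays could not change it. Centring and the series table left both means as they were. With normexp and loess the means were 0.41 for Serpina6 and -0.19 for Serpina7.

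Serpina10, the protein Z-dependent inhibitor of clotting factors, stayed near 0. Its brighter probe (chr12:104853280-104853339, minus strand, base 3154) gave 0.00 and -0.07 in the greater and 0.12 and -0.08 in the less weight loss pool. The second (chr12:104866454-104866513, base 755) gave 0.25 and 0.15, then 0.01 and 0.00. The 2 probes differ most in the greater weight loss pool, where their means were -0.04 and 0.20.

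Serpina12, or vaspin, is a serpin best known from fat tissue and skin, and its liver signal was near background. The probe (chr12:105267099-105267158, minus strand, base 3510) gave -0.18 and -0.48 in the greater and -0.86 and 0.78 in the less weight loss pool, so the dye orientations of the second pool disagreed in sign. On the array with less weight loss and GALP in Cy3, both channels were bright, at 397 in control and 682 with GALP. On the other 3 arrays control was 30.3 to 40.5 and GALP 21.8 to 28.7. The same extracts were thus bright in 1 dye orientation and dim in the other. Control was well above background on 2 and GALP on 1 of 4 arrays, so no direction is given.

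Between the pools, Serpina4-ps1 stood apart from the other members. Probe A_51_P339098 (base 619 of the transcript) gave log2 ratios of 1.70 and 1.12 in the greater and -1.13 and -1.46 in the less weight loss pool. Its control signal was 55.7 and 71.1 on the arrays with greater, and 65.1 and 54.3 on those with less weight loss. Its GALP signal was 181 and 154, then 29.8 and 19.7. The control stayed within a narrow range, while the GALP pools lay on either side of it without overlap. All 4 arrays had a scanner p-value under 0.01.

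The fold over control was 2.65 with greater weight loss. With less weight loss GALP was not well above background on either array. The limit set for it there, 2.45-fold lower than control, is the same as the measured fold of 0.408. It therefore adds no margin, and the true size of the fall is uncertain. The difference of the log2 ratios, less minus greater, was -2.83 with GALP in Cy5 and -2.58 with GALP in Cy3, with a mean of -2.70. The control cancels in this difference if it was the same pool on all arrays, as the methods describe, although the labels also give the control channel a weight loss group. With 1 pool on each side it has no test. With normexp correction, which adds an offset to both channels, the difference was -0.63.

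The second probe, A_52_P677262, was not well above background in any channel. Its ratios were 1.14 and 1.03 with greater weight loss, and 0.00 on both arrays with less weight loss, where the scanner software writes 0 for spots at background. Its control signal was 6.51 to 11.5 and its GALP signal 19.9 and 13.3, then 8.42 and 10.4. This probe thus gives no measured level, and under normexp correction its difference between the pools was -0.08.

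**Figure D2:**
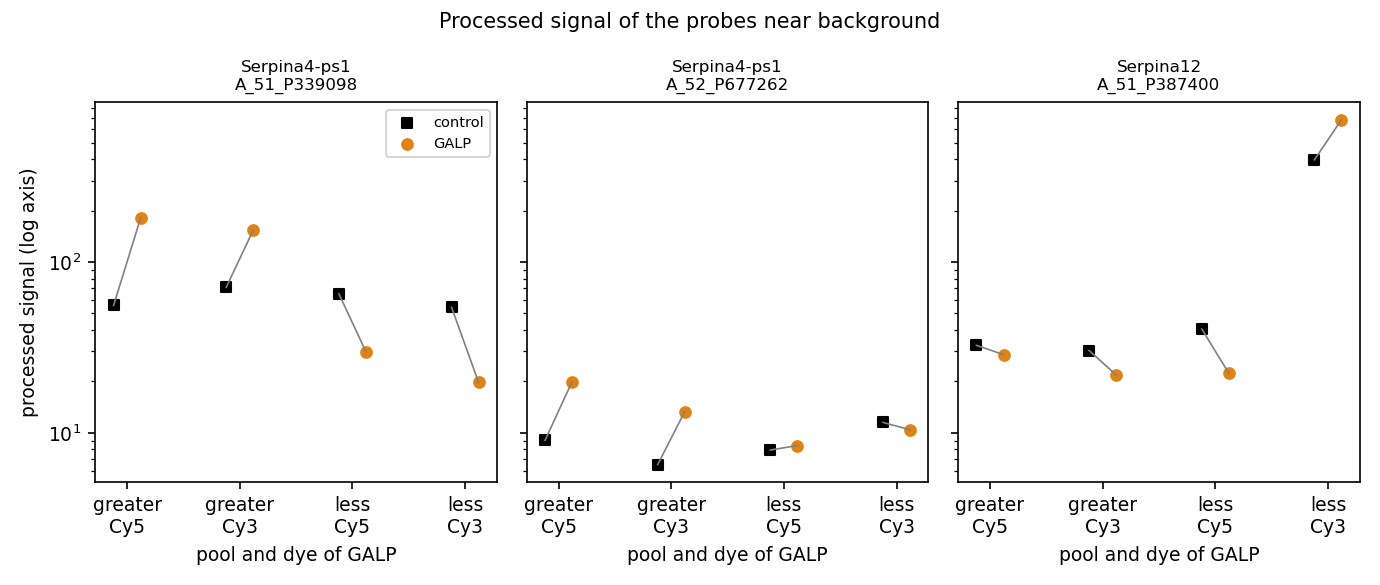
Processed signal (y axis, log scale) of the 2 Serpina4-ps1 probes and the Serpina12 probe on the 4 arrays, black squares for control and orange circles for GALP, joined within an array. For Serpina4-ps1 probe A_51_P339098 the GALP signal is 181 and 154 in the greater and 29.8 and 19.7 in the less weight loss pool around a control of 54.3 to 71.1, and for Serpina12 both channels of 1 array are bright.

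The rule of the methods can also be met in opposite directions in the 2 pools. Higher with greater and lower with less weight loss were 3 probes of 41037 (0.00731%). They were Serpina4-ps1, Myh4 and Tff3. Myh4, a myosin of fast skeletal muscle, had log2 ratios of 0.81 and -2.20, and Tff3, a secreted peptide of mucous epithelia, 1.42 and -1.63. All 8 probes of the 6 skeletal muscle markers were more than 1.5-fold lower in the less than in the greater weight loss pool, and their summed signal moved in the direction of Serpina4-ps1 with less weight loss. With greater weight loss the muscle median of 0.34 was smaller than the 1.41 of Serpina4-ps1. All 8 probes of the 6 exocrine pancreas markers met the rule the opposite way, lower with greater and higher with less weight loss. The share of all probes that did so is not given here. The part of muscle or pancreas RNA in the Serpina4-ps1 values was not tested.

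**Figure D3:**
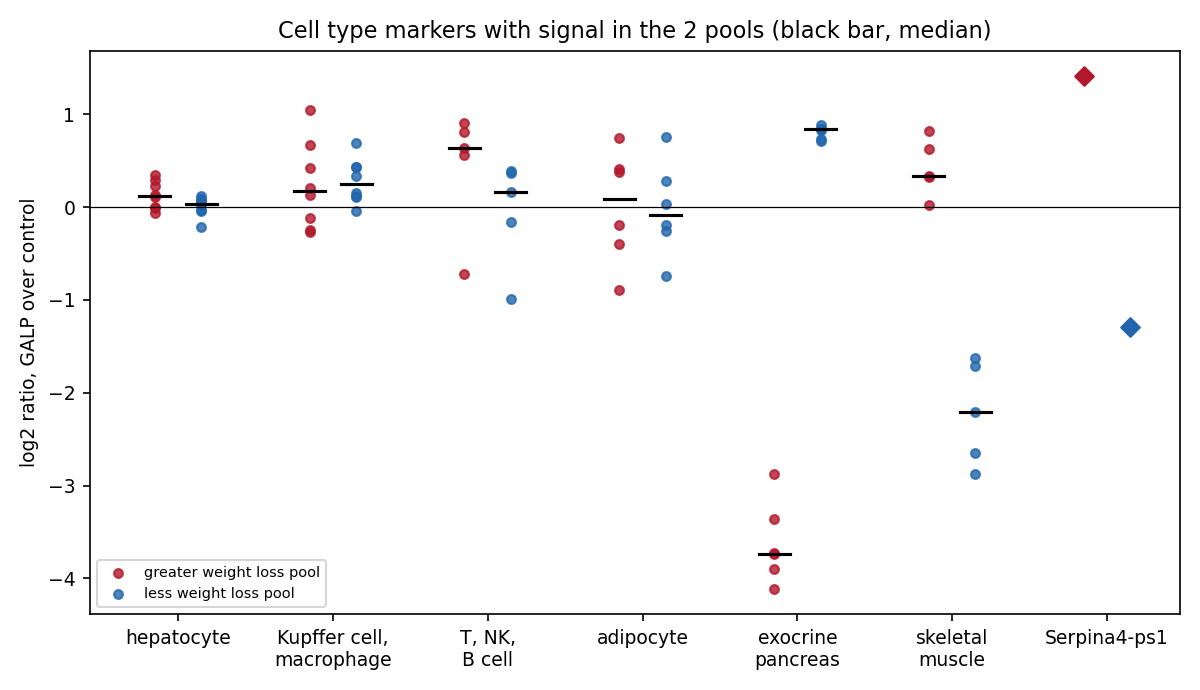
Log2 ratio of GALP over control (y axis) of each cell type marker with signal, red for the greater and blue for the less weight loss pool, black bars for medians, and diamonds for Serpina4-ps1 at 1.41 and -1.29. Hepatocyte markers lie near 0 in both pools, pancreas markers far below 0 with greater and muscle markers far below 0 with less weight loss.

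Over all probes, a fold past 1.5 between the pools with the same sign in both dye orientations was met by 1754 probes higher (4.27%) and 2384 lower (5.81%) with less weight loss. With normexp and loess these were 61 higher and 47 lower. Among the 15734 probes with signal 264 were higher (1.68%) and 264 lower (1.68%). Of the 13 member probes, 0 were higher and 2 lower, both of Serpina4-ps1, and of the 11 with signal 1 was lower, since the second Serpina4-ps1 probe was at background. Across the 9 member genes with signal the median size of the difference was 0.06, beside 0.10 over all genes with signal. The 2 arrays of a pool differed by a median of 0.11 over the 11 member probes with signal and by 0.21 over all probes with signal.

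**Figure D4:**
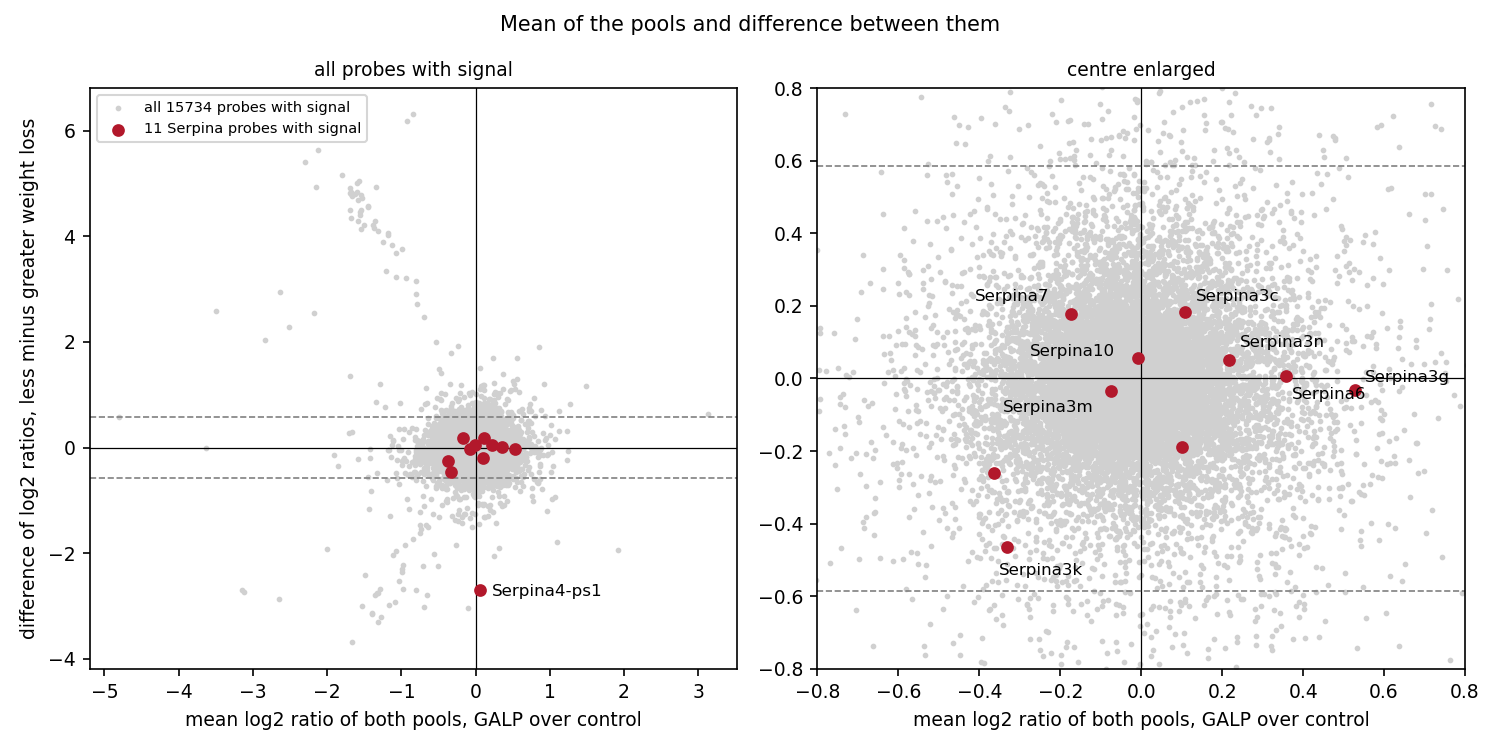
Mean log2 ratio of both pools, GALP over control (x axis), against the difference of the log2 ratios, less minus greater weight loss (y axis), grey for all 15734 probes with signal and red for the 11 member probes with signal, with the centre enlarged on the right. Dashed lines mark a fold of 1.5 between the pools, which among the red points Serpina4-ps1 passes at -2.70, while Serpina3g (0.53) and Serpina6 (0.36) lie to the right near a difference of 0.

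The 9 members on chromosome 12 have probes over a stretch of 799 kb. Other clade A serpins in the listed set of 16 had 14 probes of 12 genes, and 6 genes had signal. Their median log2 ratios were 0.06 with greater and -0.12 with less weight loss, with 0 probes called. The 3 with the highest mean in size were Serpina3f (0.34 ± 0.01), Serpina3j (-0.22 ± 0.27) and Serpina1d (-0.13 ± 0.09, SD, n = 2 pools). Serpina1d makes an alpha-1-antitrypsin, and none of the 3 differed by 1.5-fold between the pools. Of 21 other gene names within 500 kb of the cluster, 10 had signal, with medians of 0.13 and 0.16 and 0 probes called. The 3 with the highest mean were Ifi27l2a (0.28 ± 0.13), Ifi27l2b (0.26 ± 0.04), both interferon-inducible, and Clmn (0.24 ± 0.19).

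**Figure D5:**
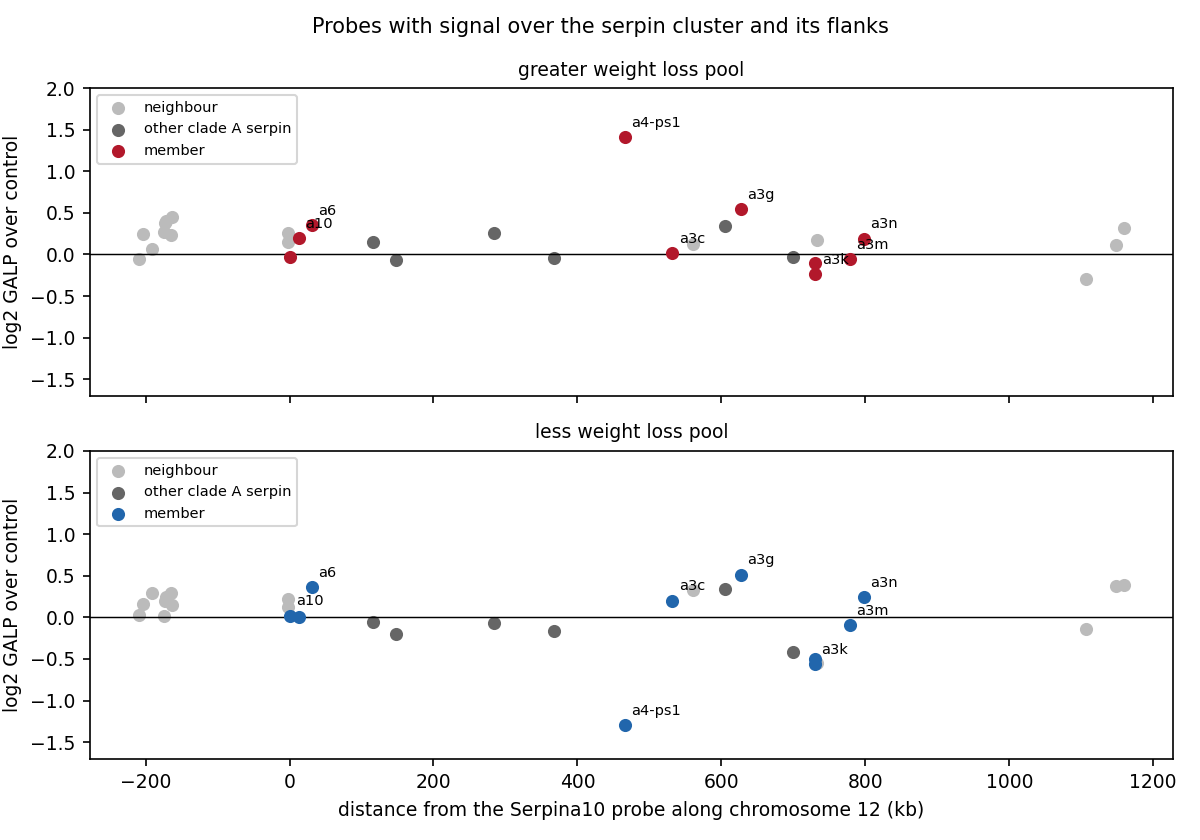
Log2 ratio of GALP over control (y axis) against the distance in kb from the brighter Serpina10 probe along chromosome 12 (x axis), for probes with signal in the greater (top) and less (bottom) weight loss pool. Coloured points are the member genes with Serpina shortened to a, dark grey points other clade A serpins and light grey points other genes. Serpina4-ps1 lies at 1.41 in the top and -1.29 in the bottom panel, apart from the other points drawn. Nearby probes without signal are left out, among them Serpina9 (1.58 and -1.06).

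Serpins of other clades had 52 probes of 37 genes, of which 12 genes had signal, with medians of 0.03 and 0.00 and 0 probes called. Serpini2, a serpin of the pancreas, stood at -4.27 and -3.61 in the greater and 0.62 and 0.49 in the less weight loss pool, like the pancreas markers. Serpinh1, a collagen chaperone, had a mean of 0.43 ± 0.37 (SD, n = 2 pools).

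Genes that share known regulators or ligands with the members were listed as well. All 24 acute-phase genes were on the array and 22 had signal, with medians of 0.04 in the greater and 0.18 in the less weight loss pool. Their 31 probes gave 0 calls. Of the 22 genes 7 lay above 0 on all arrays and 4 below, beside 11.4% and 15.7% of all probes with signal. The 4 below 0 were Fgg (-0.22), Orm1 (-0.155), Fgb (-0.14) and Fga (-0.11). Il1rn, the interleukin-1 receptor antagonist, had a mean of 0.75 ± 0.33, Lcn2, an iron-siderophore binder, 0.63 ± 0.06, and Saa3, a serum amyloid A, 0.51 ± 0.21 (SD, n = 2 pools).

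Of 16 glucocorticoid-induced genes, 14 were on the array and had signal, with medians of 0.26 and 0.14. Of their 24 probes 4 passed the rule of the methods, each higher with GALP. These were the metallothioneins Mt2 (1.49 ± 0.83) and Mt1 (1.28 ± 0.58), Fkbp5, a regulator of the glucocorticoid receptor (1.23 ± 0.17), and the kinase Map3k6 (1.13 ± 0.22, SD, n = 2 pools). Of the 14 genes, 7 lay above and 4 below 0 on all 4 arrays, beside 11.4% and 15.7% of all probes with signal, and the rule called 0.0585% of all probes higher. The 4 below 0 were Dusp1 (-0.53), G6pc (-0.41), Tat (-0.38) and Tsc22d3 (-0.21). The list was chosen with earlier results of these data known, so nothing is read from these counts. The 10 thyroid hormone response genes had medians of -0.17 and -0.03, and 0 of 17 probes were called. Me1, the malic enzyme (-0.41 ± 0.07), Thrsp (-0.37 ± 0.07), both of fat synthesis, and Gpd2 (-0.29 ± 0.04) had the lowest means.

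Serpina3g had the highest mean in size of the members with signal, and its 4 array ratios were compared with those of 14461 probes well above background in both channels of every array. The 5 nearest gene names by Euclidean distance over the 4 arrays were Notch4 (0.14), Alpl (0.15), Nid1 (0.16), Tns1 (0.18) and Klf13 (0.19). Their mean log2 ratios were 0.48, 0.57, 0.48, 0.52 and 0.56, beside 0.53 for Serpina3g. Other probes of the same gene could differ: 2 further Tns1 probes with signal had means of -0.33 and 0.39, and a further Klf13 probe 0.92.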

How the data were processed

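Liver RNA pools of GALP and saline mice were compared on 4 two-colour arrays. The authors' scans were quantified with Feature Extraction (12.0.3.1 in the file headers, 11.0.1.1 in the submitters' processing notes). The deposited intensity of a channel is background-subtracted and dye-normalized. The deposited log10 ratio sets processed Cy5 over Cy3 signal, and its deposited p-value is that software's own, for the extracts of 1 array. A deposited table of the whole series, with log10 ratios already as GALP over control, was an alternative. It equals the scanner values except where those are 0.

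Ratios were put on the log2 scale as GALP over control. Outlier-marked spots were dropped, spots of a probe averaged (a probe's p-value is the highest of its spots), and the 2 arrays of a pool averaged. The labels give the control channel the weight loss group of its array, whereas the methods describe 1 control pool, and it was treated as 1 pool, so its spread enters no test. The tests were the rule of the methods, read strictly, and limma 3.58.1 (R 4.3.3) over 41037 probes with 1 residual degree of freedom. Both were checked on simulated data. A limit sets the brighter group against the dim group's signal or the array's lowest signal well above background, whichever was higher, after Aquantile scaling. A gene stands by its brightest probe. Named genes were the members, called probes of each gene list or else the 3 with the largest mean ratio, cell type markers as summed lists with the 5 lymphoid genes with signal, and 5 most like Serpina3g. Named after their values were seen were the glucocorticoid-induced and acute-phase genes below 0 on all arrays. The same holds for the macrophage and Kupffer cell markers of mixed direction, and for the dimmer Ptprc and Csf1r probes. A gene of the other-clade serpin list and a probe sequence are not reported here. The members and lists were chosen with earlier results of these data known. Probe positions are mm9 as in the files, and promoters are GRCm38.p6. Arrays have no read depth, and precision rests on 2 GALP pools and 1 control pool, since dye swaps repeat the same extracts. Alternatives were normexp with an offset of 50 and loess, centring, the series table, outlier marks, a signal filter, the p rule, single dye orientations, and leaving out an array or a pool.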

Additional observations from a re-analysis of the deposited data

Results flagged for a closer look

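Serpina4-ps1, probe A_51_P339098, lay above control on both arrays of the greater and below it on both arrays of the less weight loss pool, with a difference of -2.70 on the log2 scale (less minus greater). The difference was not tested, as each side holds 1 pool. Its sign was kept in all 11 alternatives that gave a difference, which ran from -2.9952 to -0.63. Since the arrays of the 2 pools lay on opposite sides of 0, subsets of the arrays could not change the sign. Centring, the series table, kept outlier marks and the signal filter left the difference at -2.70. The value of -0.63 came from normexp and loess. Skeletal muscle markers had medians of 0.34 and -2.20 in the same pools, and their part in this value was not tested.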

How the results depend on the processing

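The rule of the methods gave 24 probes higher and 54 lower. It gave 9 and 26 with normexp and loess, 53 and 166 where 1 array of each pool sufficed for the p-value, 154 and 360 without it, 133 and 139 with GALP in Cy5 only, and 140 and 156 with GALP in Cy3 only. Leaving out an array gave 27 to 40 higher (40 without the less weight loss array with GALP in Cy3) and 65 to 69 lower, and leaving out a pool 96 to 120 and 149 to 162. Members called were 0 in each of these, except that without the less weight loss pool 1 was higher and without the greater weight loss pool 1 was lower, both Serpina4-ps1 (range 0 to 1). Past 1.5-fold between the pools were 1754 higher and 2384 lower with less weight loss, against 61 and 47 with normexp and loess, 264 and 264 with the signal filter, 3908 and 4584 with GALP in Cy5 only, 4469 and 4844 with GALP in Cy3 only, and 3699 to 4307 and 3759 to 5664 without 1 array, where a single dye orientation leaves no check on the sign. Member probes lower were 2, but 1 with normexp or the signal filter, 3 with GALP in Cy5 only, where Serpina12 joined at -0.68, and 2 to 3 without 1 array, where the brighter Serpina3k probe joined at -0.60 without the less weight loss array with GALP in Cy3. Member probes higher were 0, but 1 with GALP in Cy3 only and 0 to 1 without 1 array, in each case Serpina12, at 1.26 and, for the latter, at 1.11 without the less weight loss array with GALP in Cy5. limma gave 0 and 0, but 42 and 53 with normexp and loess, 0 and 1 with the signal filter, and 77 and 116 with the pool as a random block, which was run without the dye term after seeing the data because 4 arrays could not fit both. The causes were not tested.

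The member median was 0.02 with less weight loss, but 0.12 with GALP in Cy5 only and -0.0501 to 0.1173 without 1 array, and with greater weight loss it was 0.02 to 0.06 without 1 array and 0.08 with the mean over all probes of a gene. With normexp and loess the medians were 0.05 with greater and 0.07 with less weight loss. Of 308 alternative values of single member probes, 27 had another sign. Centring changed nothing, since every array median was 0. Serpina4-ps1 and Serpina12 lay close to background, which limits their ratios.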

Other observations

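Serpina3k lies beside Serpina3j and the expressed sequence BI247908, at 730, 700 and 733 kb from the Serpina10 probe. This neighbourhood was looked at after its values were seen. Serpina3j had log2 ratios of -0.03 in the greater and -0.41 in the less weight loss pool, BI247908 0.18 and -0.55, and the brighter Serpina3k probe -0.10 and -0.56. Serpina3m, at 779 kb, gave -0.06 and -0.09.

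Serpina9, 382 kb from the Serpina10 probe and best known from germinal centre B cells, was not well above background on every array. It gave 1.78 and 1.37 in the greater and -1.98 and -0.14 in the less weight loss pool. These signs were those of Serpina4-ps1, at 466 kb. The Serpina9 ratio between the pools was not tested.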
